A study of Mus musculus with 4 samples.

Results

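Cultured mouse synovial fibroblasts, the connective-tissue cells that line the joint, were compared with and without indomethacin while both dishes were stimulated with IL-1β. The comparison sets the array of IL-1β with indomethacin against the array of IL-1β alone, which are 2 of the 4 arrays of the series. All 20380 probe sets that name 1 gene were taken, and they cover 12393 genes. A gene counts as measured when its signal lay above a floor of 41.2 on at least 1 of the 2 arrays, which held for 6846 genes. Of these, 6443 were above the floor on both arrays and 403 have only a bound.

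Per the labels, the cells came from the knees of male DBA/1J mice, 8 to 12 weeks old and without arthritis, and had been passaged 3 to 4 times. The 4 dishes, all kept in medium with 1% heat-inactivated FCS, were treated for 6 h with IL-1β plus indomethacin and iloprost, IL-1β plus indomethacin, IL-1β, or vehicle. IL-1β was given at 5 ng/ml, indomethacin at 1 µM and iloprost, a stable prostacyclin analogue, at 1 µM. Each treatment has 1 array, so no value has a replicate error and no difference could be tested. A dish with indomethacin but no IL-1β is not analysed here, so the effect of the drug on unstimulated cells is not covered.

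Indomethacin blocks the cyclooxygenases, the enzymes that turn arachidonic acid into the precursor of all prostanoids. IL-1β induces the cyclooxygenase gene Ptgs2, and joint fibroblasts then release prostaglandin E2 and prostacyclin into their own medium. Several prostanoid receptors couple to adenylyl cyclase, raise cAMP and activate protein kinase A and the transcription factor CREB. The comparison therefore addresses which part of the transcript pattern under IL-1β depends on prostanoids that the cells make themselves.

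The deposited indomethacin array was dimmer than the IL-1β array, with a median gene at a log2 ratio of -0.15. The 14 probe sets for added control transcripts above the floor were dimmer too, by a median log2 ratio of -0.31, with a range from -0.59 to -0.07. All signals below are therefore scaled so that the median gene is equal on the arrays, and log2 ratios are indomethacin with IL-1β over IL-1β alone. Probe sets of the same gene gave ratios with an SD of 0.20 on the log2 scale, from 5857 probe sets of 2359 genes. This is noise within an array and holds no difference between dishes. The middle 95% of ratios ran from -0.54 to 0.51, and from -0.43 to 0.40 in the brightest 1611 genes.

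Cultures labelled as fibroblasts held fibroblast and macrophage transcripts. Col1a2, a collagen chain, had a signal of 6103 with indomethacin and 5600.4 with IL-1β alone, and the intermediate filament gene Vim had 6135 and 6052. The macrophage lysozyme gene Lyz2 had 6258 with indomethacin and 6247 with IL-1β alone, and the macrophage growth factor receptor gene Csf1r had 4628 and 4731. All 25 macrophage markers on the array were measured, with ratios from -0.49 to 0.19 and a median of -0.05, and their summed signal was 51295 with indomethacin and 54302 with IL-1β alone. The 16 measured fibroblast markers had a median ratio of 0.00 and a summed signal of 38372 with indomethacin and 38436 with IL-1β alone. Of 13 endothelial markers 2 were measured, of 12 chondrocyte markers 1, of 8 adipocyte markers 2, of 9 mast cell markers 1 and of 9 lymphocyte markers 0. Pecam1 and Cdh5 of endothelium, Acan and Col2a1 of cartilage, and Adipoq of fat were under the floor on both arrays. In a mixed culture, fewer cells of a type and less RNA per cell cannot be told apart.

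Indomethacin was accompanied by lower signals of a small set of genes. It held 8 of 20 measured genes of the CREB target list and 6 of 15 hyaluronan genes, while 18 were in no list. The lists were chosen with earlier results of these data known, so these counts are descriptive. At 2-fold, 46 of 6846 genes were lower with indomethacin, or 0.672%, and 17 were higher, or 0.248%. At 1.5-fold, 163 genes were lower, or 2.38%, and 106 higher, or 1.55%. The split depends on the scale: 73.0% of the genes past 2-fold were lower relative to the median gene, against 87.0% on the scale as deposited, where 60 were lower and 9 higher. With quantile normalization of the 4 arrays it was 72.1%. A scale set by the added control transcripts, which were dimmer by more than the median gene, was not tried. Of the 46 lower genes 33 were above the floor on both arrays, and the other 13 values are bounds.

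**Figure D1:**
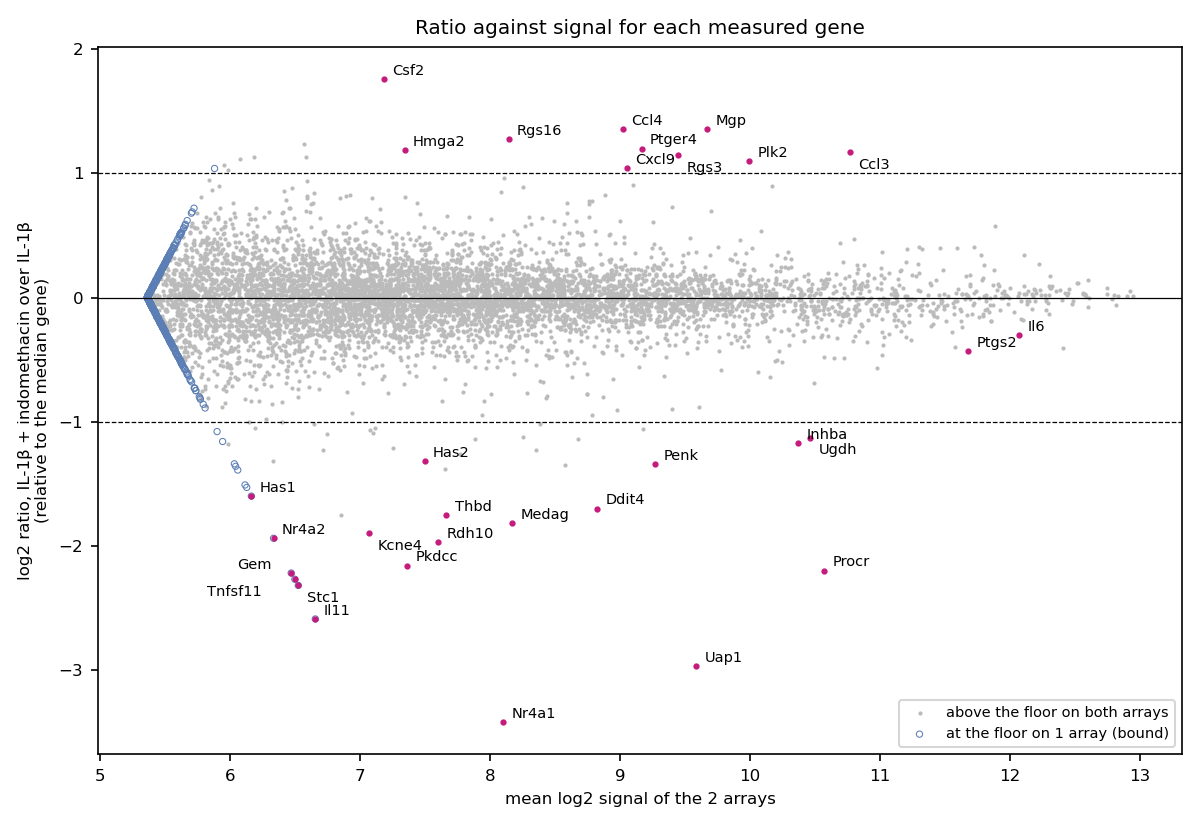
Log2 ratio of IL-1β with indomethacin over IL-1β alone (y axis) against the mean log2 signal of the 2 arrays (x axis), 1 point for each of 6846 measured genes; open points are bounds, magenta points are labelled genes and dashed lines mark 2-fold. The cloud is narrow around 0, and Nr4a1 at -3.42 and Uap1 at -2.97 lie farthest below it, with Csf2 at 1.76 farthest above.

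The NR4A orphan nuclear receptors, transcription factors induced within an hour by cAMP in many cell types, held the lowest ratio. Nr4a1 had a signal of 84.0 with indomethacin, against 897 with IL-1β alone, a 10.7-fold lower level and a log2 ratio of -3.42. With iloprost also present its signal was 604, and in the vehicle dish it was 39.9, under the floor. Nr4a2 had 24.8 with indomethacin, under the floor, against 158.5 with IL-1β alone, so its ratio is at most -1.94. Its other probe set stood at a bound of -1.70. Nr4a3 was under the floor on both arrays.

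Promoter windows of 4 of the lower genes are printed because CREB binds the palindrome TGACGTCA, called the cAMP response element, and its core TGACG. Windows run from 250 bases before to 50 bases after the RefSeq start, on build GRCm38.p6, in the gene's direction, and capitals mark the core on either strand (TGACG or CGTCA) for Nr4a1 and Nr4a2 and the palindrome for Has1 and Dio2. The Nr4a1 window, chr15:101266596-101266895 on the plus strand, holds 4 cores, the first 233 and the last 40 bases before the start. The Nr4a2 window, chr2:57123954-57124253 on the minus strand, holds 4 cores between 200 and 111 bases before the start. The windows of the hyaluronan synthase gene Has1, chr17:17855139-17855438 on the minus strand, and of the deiodinase gene Dio2, chr12:90738989-90739288 on the minus strand, hold the whole palindrome 83 and 95 bases before the start.
Nr4a1: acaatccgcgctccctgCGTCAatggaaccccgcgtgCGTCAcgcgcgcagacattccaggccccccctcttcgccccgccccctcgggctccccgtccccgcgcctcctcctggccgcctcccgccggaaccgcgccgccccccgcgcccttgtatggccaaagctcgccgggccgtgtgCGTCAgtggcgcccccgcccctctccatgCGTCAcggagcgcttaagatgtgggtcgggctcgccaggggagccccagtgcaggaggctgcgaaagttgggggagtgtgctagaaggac
Nr4a2: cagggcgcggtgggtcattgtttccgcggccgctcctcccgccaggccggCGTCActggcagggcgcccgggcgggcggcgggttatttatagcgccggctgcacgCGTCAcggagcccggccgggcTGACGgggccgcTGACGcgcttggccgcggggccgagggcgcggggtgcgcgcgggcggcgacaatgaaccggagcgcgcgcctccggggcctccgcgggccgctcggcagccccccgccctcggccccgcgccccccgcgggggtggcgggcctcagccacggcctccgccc
Has1: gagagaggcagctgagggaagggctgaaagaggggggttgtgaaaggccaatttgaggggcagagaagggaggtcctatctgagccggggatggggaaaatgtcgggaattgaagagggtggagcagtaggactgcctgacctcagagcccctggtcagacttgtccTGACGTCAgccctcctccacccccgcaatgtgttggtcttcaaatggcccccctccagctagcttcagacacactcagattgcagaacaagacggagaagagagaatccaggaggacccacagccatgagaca
Dio2: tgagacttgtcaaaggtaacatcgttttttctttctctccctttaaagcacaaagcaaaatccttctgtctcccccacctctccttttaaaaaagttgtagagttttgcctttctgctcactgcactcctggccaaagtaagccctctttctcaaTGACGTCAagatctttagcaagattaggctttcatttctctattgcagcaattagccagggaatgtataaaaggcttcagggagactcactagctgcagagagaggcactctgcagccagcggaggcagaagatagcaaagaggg

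RefSeq windows were at hand for 35 of the 46 lower genes, 41 windows in all. The palindrome was in 2 of the 41 windows, or 4.88%, against 3.05% of the 7250 windows of all measured genes. The core, which each palindrome holds on both strands, was in 12 of the 41 windows, or 29.3%, against 32.5% of all windows. At least 4 cores were in 2 of the 41, those of Nr4a1 and Nr4a2, and in 0.566% of all windows. The cut of 4 equals the count in these 2 windows, so this share describes them and tests nothing. AAAGGTCA, the element that NR4A proteins bind as monomers, was in 0 of the 41 windows and in 0.924% of all. A match of these letters is not a measured binding site.

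Among the CREB target genes of the list, 20 were measured, and 8 were at least 2-fold lower with indomethacin and 0 higher, against 0.672% and 0.248% of all measured genes. In all, 17 were below the median gene and 3 above it, against 50.3% and 49.7% of all measured genes. Their median ratio was -0.48, against 0.00 over all measured genes, and 6 of the 20 values are bounds. All 6 were under the floor with indomethacin, so they could only fall below the median gene. The other 14 were above the floor on both arrays. Stc1, the secreted calcium and phosphate regulator stanniocalcin, had 39.8 with indomethacin, under the floor, against 206 with IL-1β alone, a level at least 5.01-fold lower. The small GTP-binding protein gene Gem had 36.3, under the floor, against 191 with IL-1β alone, at least 4.64-fold lower. Nfil3, a bZIP repressor of D-box genes, had 63.0 with indomethacin, against 212 with IL-1β alone, and Penk, which encodes the enkephalin precursor, had 388 against 983. These genes form 1 end of the list. At the other end, the early growth response factor Egr1 stood at 0.38 and the stress-induced factor Atf3 at 0.65, with 395 with indomethacin against 252 with IL-1β alone. Junb, at 0.06, was the other member above the median gene, and Fos and Rgs2 were at -0.29 and -0.06.

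Feedback genes of cAMP signalling were among the lower members, and Crem is named here after its value was seen. Pde4b, a phosphodiesterase that degrades cAMP, had 125.0 with indomethacin, against 325.5 with IL-1β alone, a ratio of -1.38, and its second probe set stood at -1.09. Crem, the CREB-related modulator whose short form ICER represses CREB targets, had 100.3 with indomethacin, against 233 with IL-1β alone, a ratio of -1.21, with -1.42 on a second probe set. Of the 17 measured components of the cAMP pathway, Pde4b was the single one past 2-fold, against 0.672% lower and 0.248% higher of all measured genes. Pde8a, another cAMP phosphodiesterase, was at -0.60 and Creb1 at 0.63, at dim signals of 74.9 with indomethacin and 48.4 with IL-1β alone. The stimulatory G protein subunit gene Gnas was at 0.07, the kinase subunit genes Prkaca, Prkacb and Prkar1a at -0.11, 0.01 and -0.18, and the cyclases Adcy7 and Adcy6 at 0.02 and -0.30.

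**Figure D2:**
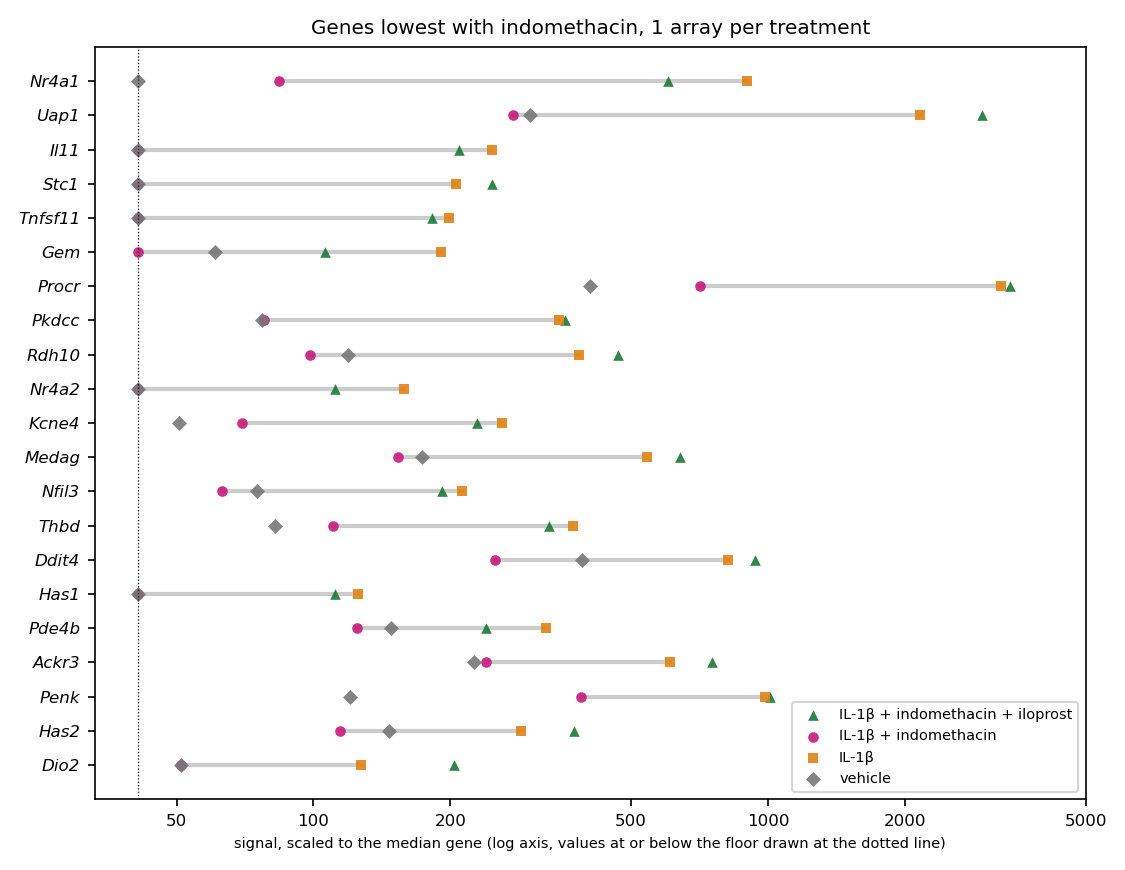
Signal (x axis, log scale) of the 15 genes lowest with indomethacin among bright genes above the floor, and of the 6 genes that reached the floor with a bound of at least 3-fold, in each of the 4 dishes; the dotted line is the floor of 41.2, and points at it overlap. Grey bars join IL-1β with indomethacin to IL-1β alone. Pkdcc had 77.9 with indomethacin and 77.2 with vehicle, so its points overlap at the left.

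Genes that make prostanoids differed little. Ptgs2, the inducible cyclooxygenase and a target of the drug, had 2821 with indomethacin, against 3798 with IL-1β alone, a ratio of -0.43. Its second probe set, with 1827 with indomethacin and 2854 with IL-1β alone, was past 1.5-fold at -0.64. The arachidonic acid-releasing phospholipase gene Pla2g4a was at -0.40, the prostacyclin synthase gene Ptgis at -0.27 and the prostaglandin E synthase genes Ptges and Ptges2 at -0.02 and 0.00. In the list of synthesis and breakdown genes, 12 were measured. On the probe sets used, 0 passed 1.5-fold in either direction, against 2.38% lower and 1.55% higher of all measured genes. The ratios ran from -0.43 to 0.23. The thromboxane synthase gene Tbxas1 and the prostaglandin transporter gene Slco2a1 were highest, at 0.23 and 0.18, and Alox5ap, Cbr1, Hpgds, Ptgr1 and Ltc4s lay between -0.10 and 0.04. Ptgs1 is not analysed here.

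Prostanoid receptor genes spread more widely. Ptger4, which encodes the cAMP-raising prostaglandin E receptor EP4, had 870.2 with indomethacin, against 379 with IL-1β alone, a 2.29-fold higher level at a ratio of 1.20. Its second probe set stood at 0.87. Ptgfr, the prostaglandin F receptor gene, had 70.2 with indomethacin, against 143 with IL-1β alone, a ratio of -1.02, and its other probe sets were at -1.07 and, as a bound, -0.27. The prostacyclin receptor gene Ptgir had 234 with indomethacin, against 168 with IL-1β alone, a ratio of 0.48. Ptger2, the gene of the other cAMP-raising prostaglandin E receptor, EP2, had 93.3 with indomethacin, against 131 with IL-1β alone, a ratio of -0.49. The genes of the EP1, EP3, thromboxane and prostaglandin D receptors were under the floor on both arrays.

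Hyaluronan, the large polysaccharide of joint fluid, is polymerised by Has enzymes from UDP-glucuronate and UDP-N-acetylglucosamine. Of 15 measured hyaluronan genes, 6 were at least 2-fold lower with indomethacin, 8 at least 1.5-fold lower and 0 at least 1.5-fold higher. Over all measured genes these shares were 0.672%, 2.38% and 1.55%. The median was -0.59, and 13 of the 15 were below the median gene, against 50.3% of all measured genes. Has1 among them is a bound, which could only lie below it. Uap1, the enzyme that makes UDP-N-acetylglucosamine, had 275 with indomethacin, against 2156 with IL-1β alone, a 7.85-fold lower level. Both bright further probe sets of Uap1 were close to this, at -2.74 and -2.80, and a dim one gave a bound of -0.09. With vehicle its signal was 299, so the dish with indomethacin lay close to that of vehicle.

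The synthase genes followed at smaller signals. Has2 had 114 with indomethacin, against 286 with IL-1β alone, a ratio of -1.32, with -0.98 on its second probe set. Has1 had 10.6, under the floor, against 125 with IL-1β alone, a ratio of at most -1.60. Ugdh, which makes UDP-glucuronate, had 952.5 with indomethacin, against 2086 with IL-1β alone, and Gfpt2, an entry enzyme of the hexosamine pathway, had 207 against 451. Tnfaip6, whose product cross-links hyaluronan, stood at -1.14, the hyaluronan-binding proteoglycan gene Vcan at -0.78 and Gfpt1 at -0.59. The hyaluronan receptor gene Cd44 was at -0.07, the pathway genes Gnpnat1 and Ugp2 at -0.02 and -0.19, Ptx3 at -0.14 and Hmmr at -0.08. Both genes above the median gene act in hyaluronan breakdown, Hyal2 at 0.31 and Cemip at 0.27. Has3 was under the floor on both arrays.

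Procr and Thbd, whose products help to activate the anticoagulant protein C, were lower than the other coagulation genes measured. Procr, the endothelial protein C receptor, had 709 with indomethacin, against 3264 with IL-1β alone, a 4.61-fold lower level. Thrombomodulin Thbd had 111 with indomethacin, against 373 with IL-1β alone, a 3.37-fold lower level. In vehicle these genes had 405 and 82.3. Of 14 measured coagulation and fibrinolysis genes, these were the 2 past 2-fold, and the median was 0.06. At 2-fold, 0.672% of all measured genes were lower. The urokinase gene Plau was at -0.81 at dim signals of 43.0 with indomethacin and 75.3 with IL-1β alone. Tissue factor F3, the starter of clotting, had 578 with indomethacin, against 336 with IL-1β alone, a ratio of 0.78. The plasminogen activator inhibitor gene Serpinb2 was at 0.51, the tissue plasminogen activator gene Plat at 0.16, and Tfpi, Pros1 and Plaur at 0.12, 0.08 and -0.15.

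Cytokine genes differed sharply from each other. Il11, an IL-6 family cytokine, had 37.2 with indomethacin, under the floor, against 247 with IL-1β alone, a level at least 6.00-fold lower. Clcf1 of the same family reached the floor at a ratio of at most -1.34, while its second probe set gave a bound of -0.22. Lif had 355 with indomethacin, against 618.5 with IL-1β alone, a ratio of -0.80, with -0.39 on a dimmer probe set. Il6 itself had 3872 with indomethacin, against 4757 with IL-1β alone, and its ratio of -0.30 was small beside those of Il11 and Clcf1. The receptor gene Lifr went the other way at 0.81, while Osmr and Il6st were at 0.03 and -0.09. The list of 8 measured members had a median of -0.19. At 2-fold, 2 were lower and 0 higher, against 0.672% and 0.248% of all measured genes.

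Tnfsf11, which encodes the osteoclast-inducing ligand RANKL, had 26.4 with indomethacin, under the floor, against 199 with IL-1β alone. Its ratio was at most -2.27, and its second, dimmer probe set gave a bound of -0.82. The decoy receptor of RANKL, Tnfrsf11b, was at -0.14. The alarmin Il33 had 140.5 with indomethacin, against 338 with IL-1β alone, and the epithelial-type cytokine Tslp had 159 against 351, ratios of -1.26 and -1.14. The IL-1 receptor gene Il1r1 and the antagonist gene Il1rn were at -0.70 and -0.69, while Il1b and Il1a were at -0.19 and -0.29.

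The highest ratio of the comparison was that of Csf2, the granulocyte-macrophage growth factor GM-CSF. It had 267 with indomethacin, against 79.0 with IL-1β alone, a 3.38-fold higher level, and 1.9 with vehicle, under the floor. Other growth factor genes of myeloid cells differed less, with Csf1 at 0.41 and Csf3 at -0.42. Tnf had 269.9 with indomethacin, against 187 with IL-1β alone, a ratio of 0.53, and Il15 and Il18 stood at 0.52 and 0.22. In the list of 26 measured cytokines and receptors outside the IL-6 family, 3 were at least 2-fold lower and 1 higher, with a median of -0.06. Over all measured genes 0.672% were lower and 0.248% higher at 2-fold.

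**Figure D3:**
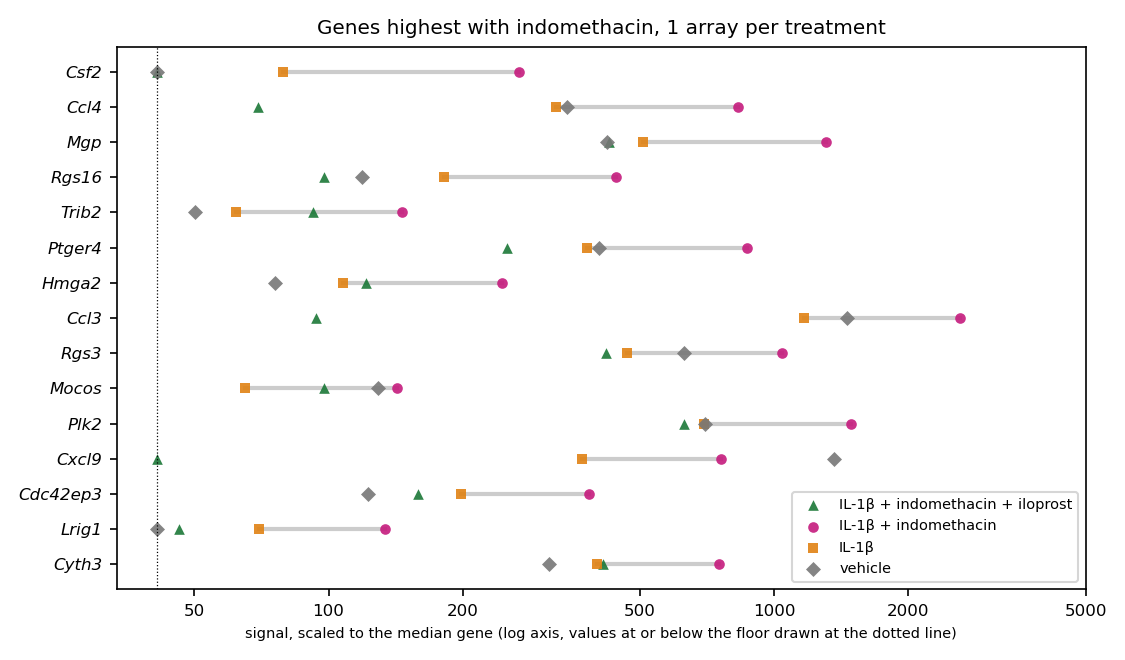
Signal (x axis, log scale) of the 15 genes highest with indomethacin among bright genes above the floor, in each of the 4 dishes; the dotted line is the floor of 41.2 and grey bars join IL-1β with indomethacin to IL-1β alone. For Ccl3 the circle at 2613 with indomethacin lies right of 1164 with IL-1β alone, and for Csf2 the circle at 267 lies right of 79.0.

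Chemokine genes were mostly close to their IL-1β level, with a few exceptions. The macrophage inflammatory protein genes Ccl4 and Ccl3, which attract monocytes and T cells, had 831 and 2613 with indomethacin, against 325 and 1164 with IL-1β alone. These are 2.56-fold and 2.24-fold higher levels. Of 14 measured genes of the CC list, these were the 2 past 2-fold, with 0 lower, against 0.248% higher and 0.672% lower over all measured genes. The median was 0.15, or 0.01 on the scale as deposited. Ccl8 and Ccl5 were at 0.46 and 0.41, while Ccl2, Ccl7 and Ccl20 were at 0.14, 0.18 and -0.04. Both Ccl3 and Ccl4 are typical products of macrophages, whose summed marker signal is given above, and the part of those cells in this difference was not tested.

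Among CXC genes, the interferon-induced T-cell attractant Cxcl9 had 762 with indomethacin, against 371 with IL-1β alone, a ratio of 1.04. Its relatives Cxcl10 and Cxcl11 were at 0.34 and 0.37. The neutrophil attractants Cxcl1, Cxcl2 and Cxcl5, with signals of 2783 to 4002 with indomethacin and 2966 to 4360.0 with IL-1β alone, stood at -0.06, -0.09 and -0.12. Of 14 measured members 2 were at least 2-fold lower, against 0.672% of all measured genes, and both were receptors of Cxcl12. Ackr3, which scavenges it, had 239 with indomethacin, against 609.6 with IL-1β alone, and Cxcr4, its signalling receptor, had 96.2 against 199.7. Cxcl12 itself was at 0.01. The chemokine gene Ppbp, at a bound of -0.75, was the other member at least 1.5-fold lower.

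RGS proteins speed the switching-off of G proteins, and in this list differences ran upward. Rgs16 had 441 with indomethacin, against 181 with IL-1β alone, a 2.44-fold higher level, and Rgs3 had 1041 against 468, a 2.22-fold higher level. Both further probe sets of Rgs16 gave 1.32 and 1.43, and a second bright probe set of Rgs3 gave 1.18. The other 6 of 8 measured members lay between -0.06 for Rgs2 and 0.48 for Rgs18, and the median was 0.25, or 0.10 as deposited. At 2-fold, 0.248% of all measured genes were higher.

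Interferon-response genes showed small ratios of mostly 1 sign. Of 34 measured members 30 were above the median gene, against 49.7% of all measured genes, with a median of 0.20, or 0.06 as deposited. None passed 2-fold, and 2 were at least 1.5-fold higher, against 1.55% of all measured genes. These were the interferon regulatory factor gene Irf1 at 0.75 and the antiviral GTPase gene Mx2 at 0.64. Irf1 had 562 with indomethacin, against 334 with IL-1β alone. Mx1, Oas3, Ifit1 and Gbp2 were at 0.54, 0.42, 0.40 and 0.39, and Trim30a was lowest at -0.13. All 10 measured antigen presentation genes were above the median gene as well, with a median of 0.09, or -0.03 as deposited. Cd74 among them is a bound, which could only lie above it. The peptide transporter genes Tap1 and Tap2 were highest, at 0.30 and 0.23, followed by the immunoproteasome genes Psmb10, Psmb9 and Psmb8 at 0.21, 0.18 and 0.12. The MHC class I chains H2-K1 and H2-D1 were both at 0.04 and B2m at 0.05.

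**Figure D4:**
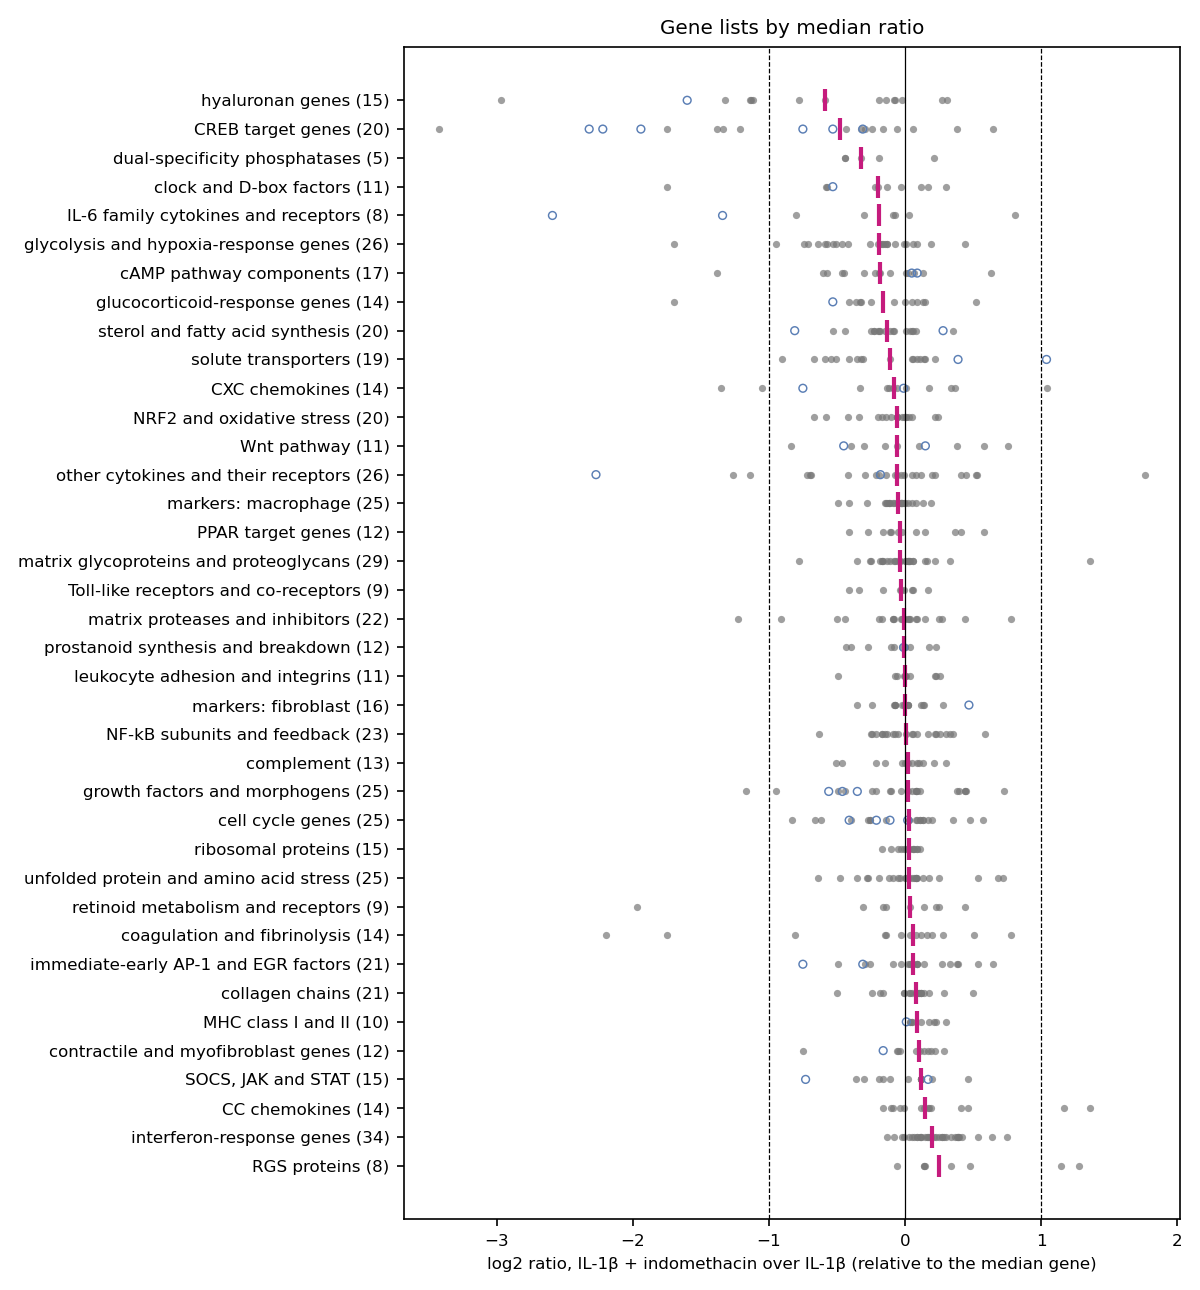
Log2 ratio of IL-1β with indomethacin over IL-1β alone (x axis) for the measured members of each gene list with at least 5 of them, the number in brackets; grey points are genes above the floor on both arrays, open points are bounds, magenta ticks are medians and dashed lines mark 2-fold. Hyaluronan genes have the lowest median, -0.59, and RGS proteins the highest, 0.25.

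Secreted growth regulators held few large differences. Inhba, the activin A subunit, had 881 with indomethacin, against 1983 with IL-1β alone, a ratio of -1.17. It was the single one of 25 measured growth factors past 2-fold, against 0.672% lower and 0.248% higher of all measured genes. The angiogenic factor Vegfa had 317 with indomethacin, against 612 with IL-1β alone, a ratio of -0.95, with -0.75 on its second probe set. Ccn1, a matricellular growth regulator, was at 0.73. In the Wnt list Wnt5a was at -0.84 and the Wnt enhancer Rspo2 at 0.76, with 501.5 with indomethacin, against 297 with IL-1β alone.

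Matrix proteases were mostly close to their IL-1β level. The stromelysin Mmp3 had 3899 with indomethacin and 3891 with IL-1β alone, and the aggrecanase gene Adamts4 had 1010.0 and 1034. Adamts1, a protease that cuts versican and aggrecan, had 214.5 with indomethacin, against 502 with IL-1β alone, a ratio of -1.23. It was the 1 of 22 measured members past 2-fold, against 0.672% lower and 0.248% higher of all measured genes. The aggrecanase gene Adamts5 stood at -0.91, with -0.61 on its second probe set, the collagenase Mmp13 at 0.44 and Mmp10 at 0.78. Mgp, the matrix Gla protein that restrains calcification, had 1306 with indomethacin, against 507 with IL-1β alone, a 2.57-fold higher level. The other 28 measured matrix glycoprotein and proteoglycan genes lay between -0.78 for Vcan and 0.33 for Matn2, and the 21 collagen chain and cross-linking genes between -0.50 for Plod2 and 0.50 for Col5a3.

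Of 26 measured genes of glycolysis and hypoxia, 21 were below the median gene, against 50.3% of all measured genes. In this list 1 gene was at least 2-fold lower and 6 at least 1.5-fold lower, against 0.672% and 2.38% of all, with a median of -0.19, or -0.34 as deposited. Ddit4, an inhibitor of mTOR, had 251.5 with indomethacin, against 818 with IL-1β alone, a 3.25-fold lower level. The other 5 past 1.5-fold were Vegfa, the lipid droplet gene Hilpda at -0.74, the kinase gene Pdk1 at -0.71, Ndrg1 at -0.64 and the lactate exporter gene Slc16a3 at -0.59. Hif1a, the oxygen-regulated transcription factor gene, had 1761 with indomethacin, against 2426 with IL-1β alone, a ratio of -0.46. Glycolytic enzymes with bright signals stayed closer, with Aldoa at -0.01, Pgk1 at -0.13 and Ldha at -0.20. Slc16a1, a lactate and pyruvate carrier, was at -0.90. In the retinoid list Rdh10, which oxidises retinol in retinoic acid synthesis, had 98.2 with indomethacin, against 384 with IL-1β alone, a 3.91-fold lower level, and the other 8 measured members ran from -0.31 to 0.44.

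Indomethacin is also known as a ligand of the nuclear receptor PPARγ. Of 12 measured PPAR target genes 0 passed 1.5-fold in either direction, against 2.38% lower and 1.55% higher of all measured genes. Their median was -0.04. The lipoprotein lipase gene Lpl was highest at 0.58, and its second probe set, with 1799 with indomethacin and 963 with IL-1β alone, was past 1.5-fold at 0.90. Angptl4 was at 0.37, Plin2 at 0.08 and Cd36 at -0.11, and Pparg itself was under the floor on both arrays. NF-κB genes, which mediate much of the IL-1β response, had a median of 0.01 over 23 measured members. Of these, 0 were past 2-fold, against 0.672% lower and 0.248% higher of all measured genes. Bcl3 was at -0.63 and Ikbkb at 0.59, with 0.11 on its second probe set, while Nfkbia, Tnfaip3 and Relb were at 0.17, 0.30 and 0.05. The 15 ribosomal protein genes lay between -0.17 and 0.11.

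The remaining lists held no more than 1 gene past 2-fold each on the probe set used. For the counts that follow, 0.672% of all measured genes were lower and 0.248% higher at 2-fold. Among immediate-early factors, 0 of 21 passed 2-fold, with Ier3 at -0.49 and Myc at 0.54. Dual-specificity phosphatases, which switch off MAP kinases, had 0 of 5, with Dusp6 and Dusp16 both at -0.44. The clock list held Nfil3 alone, with Arntl and Bhlhe40 at -0.58 and -0.57, and the glucocorticoid list held Ddit4 alone. The amino acid carrier gene Slc7a5 was the 1 member past 2-fold of 19 measured solute transporters, a bound of at least 1.04 at a signal of 84.5 with indomethacin. Scd1 and Scd2 of fatty acid synthesis were at -0.53 and -0.44, with 0.04 on a dimmer Scd2 probe set, and Pmvk of sterol synthesis at a bound of -0.81. Slc7a11 led the oxidative stress list at -0.67, Hsph1 and Casp12 spanned the stress list at -0.64 and 0.72, and Cdkn1b and Cdkn2c the cell cycle list at -0.83 and 0.57. A second probe set of Hsph1, with 224 with indomethacin and 490.0 with IL-1β alone, was past 2-fold at -1.13. Complement, Toll-like receptor, adhesion, contractile, and SOCS, JAK and STAT genes had 0 past 2-fold, with Cd55 at -0.51, Cd14 at -0.41, Itgam at -0.49, Mylk at -0.75 and Socs2 at a bound of -0.73.

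Genes outside the lists were prominent among the lower ones. Pkdcc, a secreted kinase, had 77.9 with indomethacin, against 347 with IL-1β alone, a 4.46-fold lower level, and its second probe set gave a bound of -2.09. The potassium channel subunit gene Kcne4 had 69.6 with indomethacin, against 260.1 with IL-1β alone, and Medag, linked to fat cell formation, had 153 against 542, with ratios of -1.90 and -1.82. The second probe set of Medag stood at -1.71. Dio2, which activates thyroid hormone, had 51.1 with indomethacin, against 127 with IL-1β alone, a ratio of -1.32, with -1.62 as a bound on another probe set and a bound of -0.45 on the dimmest.

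The other 14 lower genes outside the lists, named after their values were seen, comprise 6 at the floor with indomethacin and 8 above it. Bounds were at most -1.53 for Cytip, -1.51 for the calcitonin receptor-modifying gene Ramp3, -1.39 for Pitpnc1, -1.36 for the vitamin D receptor gene Vdr, -1.16 for Fibin and -1.08 for arginase Arg1. Above the floor, Drg2 was at -1.23, Rassf2 at -1.18, the triglyceride synthase gene Dgat1 at -1.10, Tmem41a at -1.09 and the neuropeptide gene Npy at -1.07. The inhibitor of differentiation gene Id3 had 402 with indomethacin, against 839 with IL-1β alone, a ratio of -1.06. Ids was at -1.05 and Nudt4 at -1.02. Pitpnc1 has 5 measured probe sets, and its other 4 lay between -0.97 and 0.00.

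Higher genes outside the lists were the serum-inducible kinase gene Plk2, with 1490.3 with indomethacin, against 695 with IL-1β alone, and the chromatin protein gene Hmga2, with 245 against 108. Trib2, a pseudokinase, was at 1.24 and Mocos at 1.13. The other probe sets of Hmga2 stood at 1.39 and 1.04, whereas that of Trib2 gave a bound of 0.27. Within the same rule, Cdc42ep3, Lrig1 and Cyth3 followed at 0.96, 0.94 and 0.91, under 2-fold. Irs1, Clasrp, Kif1c and Mustn1, named after their values were seen, were at 1.13, 1.12, 1.07 and 1.03, and all 4 were dim, with signals of 89.9 to 107.5 with indomethacin and 42.7 to 49.2 with IL-1β alone.

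Other probe sets of these genes bear on the ratios, since they are measured by different sequences on the same arrays. For 15 of the 46 lower genes 22 further probe sets were measured, of which 9 were also at least 2-fold lower, 16 at least 1.5-fold lower and 0 at least 1.5-fold higher. Most of the 22 were under the floor with indomethacin, so they are bounds that could only lie at or below 0. For 5 of the 17 higher genes 7 further probe sets were measured, of which 5 were at least 2-fold higher, 6 at least 1.5-fold higher and 0 at least 1.5-fold lower. The probe sets of 5 lower genes (Ackr3, Dgat1, Pitpnc1, Pkdcc and Procr) and of 1 higher gene, Trib2, are of the types named s or x, which can match transcripts of more than 1 gene.

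**Figure D5:**
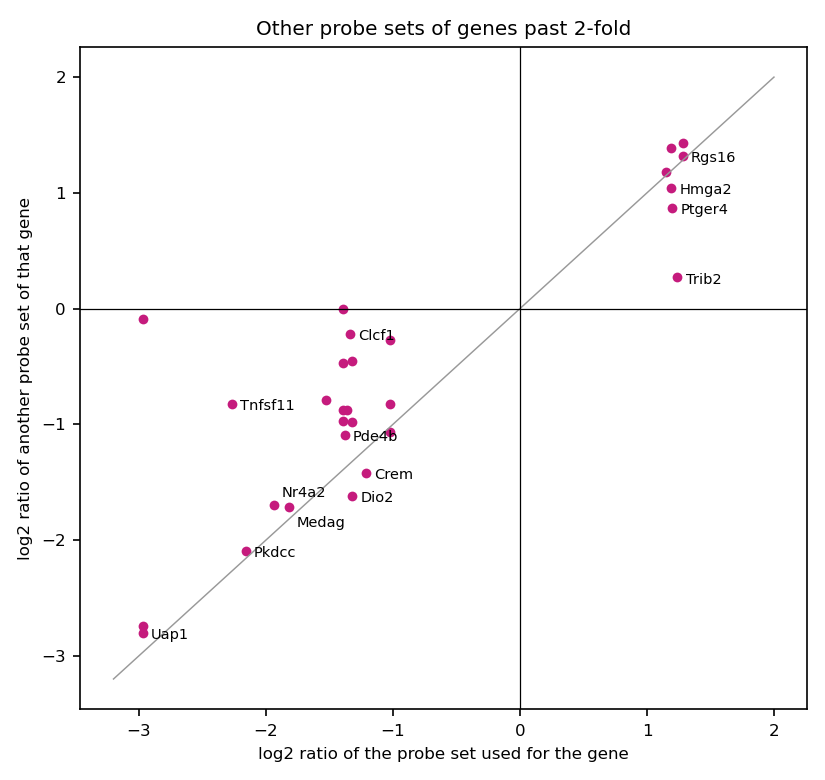
Log2 ratio of each further measured probe set (y axis) against that of the probe set used for the gene (x axis), for genes at least 2-fold lower or higher with indomethacin; the grey line marks equal ratios and bounds are drawn at their value. The 22 points of lower genes lie at or below 0 and the 7 points of higher genes above it, with Uap1 at -2.74 and -2.80 near the line. Most points of lower genes are bounds, which could only lie at or below 0.

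The remaining arrays give a comparison that shares no array with the one above, IL-1β with indomethacin and iloprost over vehicle. These dishes differ in IL-1β too, so a gene that IL-1β raises without prostanoids is also higher there. The lower genes were picked for a high signal with IL-1β, and the comparison cannot set prostanoids apart from IL-1β. All 46 lower genes were measured there, and 36 of them were at least 2-fold higher, against 2.79% of 7050 measured genes. Their median log2 ratio was 1.91, against 0.03 over all genes. Cytip, a regulator of leukocyte adhesion, was highest among them, with 2065 in the dish with iloprost and 30.6, under the floor, with vehicle, while Ids at -0.85 and Drg2 at 0.06 were among those that were not 2-fold higher. Of the 17 genes higher with indomethacin 16 were measured in that comparison, 0 were at least 2-fold higher and 3 at least 2-fold lower, against 3.33% of all measured genes. The 3 were Cxcl9, Ccl3 and Ccl4, with signals of 3.2, 93.7 and 69.3 in the dish with iloprost, against 1365, 1455 and 342.5 with vehicle.

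The level with indomethacin and that with vehicle can be set side by side for some of the lower genes and for Il6. The comparisons with vehicle share arrays with the main one and are given as values alone. Uap1 had 275 with indomethacin and 299 with vehicle, Rdh10 98.2 and 119.0, Medag 153 and 174, and Has2 114 and 147. Farther below vehicle were Ddit4, with 251.5 with indomethacin and 389.7 with vehicle, Ptgfr with 70.2 and 127.2, and Cxcr4 with 96.2 and 146.2. Procr had 709 with indomethacin and 405 with vehicle, Inhba 881 and 242, and Penk 388 and 120.1, so these 3 stayed above vehicle. Tslp had 159 with indomethacin and 9.4 with vehicle, under the floor, and Il6 had 3872 and 365, so both were well above vehicle with indomethacin present.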

How the data were processed

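Per the labels, RNA from 4 dishes was hybridised to Affymetrix arrays. The authors deposited intensity values, 1 linear signal for each of 22690 probe sets and array. How probes were summarised and scaled is not given in the sources used here. Probe sets were named by the platform's annotation table, with symbols checked by gene number against RefSeq (GRCm38.p6). Of these, 1606 unnamed probe sets, 691 naming several genes and 13 control probe sets naming 1 gene were not used. Where several probe sets name a gene, the brightest by mean log2 signal was taken.

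Each array was multiplied by 1 factor so that the median log2 signal of the 6222 genes that passed the floor on all arrays equalled that of the IL-1β array, by 1.11 for indomethacin. Signals under the 50th percentile of all scaled values, 41.2, were then set to it. With a gene at this floor on 1 of the 2 arrays the log2 ratio is a bound. With 1 array per group there is no test and no p-value, and precision is limited by the number of arrays. Calls mean a difference of at least 2-fold. The calculation was tested on simulated data, with differences planted only in genes well above the floor with IL-1β alone. That test hardly covers bounds and does not cover differences between dishes. Python 3.11.15, pandas 2.3.3 and matplotlib 3.10.9 were used.

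The comparison, the 37 gene lists and the 7 marker lists were chosen with earlier results of these data known. Named genes are the 15 lowest and 15 highest ratios, of genes that passed the floor on both arrays with a signal of at least 123.8 on the brighter, up to 8 bounds of at least 3-fold per direction, up to 4 members of each list with the largest ratios, and all measured prostanoid and hyaluronan genes. Crem and the other list members beyond these, such as Il6, Egr1 or Mmp3, were named after their values were seen. Alternatives were 4 other scales, 2 other floors, no floor, and 2 other ways to choose probe sets.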

Additional observations from a re-analysis of the deposited data

How the results depend on the processing

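No paired analysis was possible because each treatment has 1 array. The numbers of lower and higher genes, 46 and 17, depended on the probe set, the floor and the scale. With the floor at the 35th percentile 105 genes were lower and 38 higher, and at the 65th percentile 30 and 10. These 30 and 10 were all among the 46 and 17, of which 43 and 14 had a value at that floor. On the scale as deposited 60 were lower and 9 higher. With the second brightest probe set of a gene, which leaves 2607 genes measured, 13 were lower and 4 higher, and of the 15 lower and 5 higher genes with a value 8 and 3 kept their 2-fold difference. The other 5 alternatives gave 43 to 63 lower and 16 to 20 higher genes. The 63 and 20 came without a floor and held 38 of the 46 lower and 11 of the 17 higher genes. All 46 lower and 17 higher genes stayed on their side of 0 under each alternative that measured them. They were picked for a difference of at least 2-fold, while the median gene moved by a log2 ratio of -0.15 on the scale as deposited. A shift of that size could not take them across 0, and a bound at a floor cannot cross 0. This count therefore says little about how stable the calls are. Changes of sign were looked for only in list medians of at least 0.10 in size. Smaller ones were not counted, such as that of antigen presentation genes, 0.09 and -0.03 as deposited. The larger medians that changed sign were those of SOCS, JAK and STAT genes (-0.03 as deposited and -0.06 with the second probe set), contractile genes (-0.05 as deposited), cAMP pathway components (0.02 without a floor) and clock genes (0.06 with the second probe set). For these the cause was not tested.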
